A study of Homo sapiens with 2 samples.

Results

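Cisplatin damages DNA by joining neighbouring bases within a strand and, less often, bases of opposite strands. The 38 genes described here encode proteins that act on such damage by nucleotide excision, the Fanconi anaemia pathway, homologous recombination, mismatch repair or bypass by specialised DNA polymerases. They form a list of named genes out of 62700 genes in the gene table, set by their roles and by no threshold on measured values, though with earlier results of these data known. All 38 symbols were found in the table. The cells were of the line TCam-2, which was established from a human seminoma of the testis, and their genotype was DDX53 overexpression. DDX53 encodes a DEAD-box RNA helicase. Polyadenylated RNA from 1 group of 2 replicate libraries was sequenced. The labels name no treatment with cisplatin or another agent, no promoter for the transgene and no clone, and they do not say whether the replicates were separate cultures. No control library was analysed here, so nothing below is an effect of DDX53. The values show how strongly each repair gene was expressed, how far the 2 libraries differed, and which transcripts carried the expression.

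In nucleotide excision repair, a lesion is recognised either anywhere in the genome or where RNA polymerase stalls on it, the DNA around it is unwound, and the damaged stretch is cut out on both sides. A crosslink between strands blocks replication forks. The Fanconi core complex then attaches ubiquitin to the FANCD2 and FANCI clamp, nucleases unhook the crosslink, bypass polymerases copy across the remnant, and homologous recombination repairs the break. Mismatch repair proteins also bind cisplatin adducts. Germ cell tumours are known for their sensitivity to cisplatin, and low amounts of some excision repair proteins have been described in testis tumour cells.

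Reads in genes, recovered from the deposited values, numbered 24137664 in replicate 1 and 22198929 in replicate 2. DDX53 received 146 and 147 reads, which is 6.05 and 6.62 CPM (reads of a gene scaled to the library's total; mean 6.34 ± 0.405, SD, n = 2). All 8 seminoma markers reached 1 CPM in each library, the level called detected here, and summed to 5117 and 5141 CPM. Of the 3 blood cell markers 0 were detected, with PTPRC and CD3E at 0 reads, and 2 of the 4 fibroblast markers were, with sums of 19.9 and 25.1 CPM. Of the 3 embryonal carcinoma markers 2 were detected, DNMT3B at 124 and 98.4 CPM and GDF3 at 7.46 and 6.40 CPM. The third, SOX2, was near the threshold at 0.994 and 1.08 CPM. Of the 2 endothelial markers 1 was detected, CDH5, while PECAM1 had 0 CPM in replicate 1 and 0.270 CPM in replicate 2. In RNA from bulk cells, fewer cells of a type and less RNA per cell cannot be told apart.

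The repair genes were nearly all expressed. At 1 CPM or more in both libraries, 37 of the 38 were detected, against 61.7% of 19831 protein-coding genes and 21.7% of all 62700 genes. The exception was ERCC5, with 12 and 23 reads. At 5 CPM 36 genes were detected, and by TPM, the measure of the transcript table, 34 reached 1 in both libraries. Levels between genes are given as CPM per kilobase of merged exon (RPKM). Folds between genes depend on the length used, so folds between repair genes that move by over 1.5 times are also given in TPM, summed per gene, or for the length of the gene's top transcript by TPM. The median repair gene stood at 5.28 RPKM in replicate 1 and 5.09 RPKM in replicate 2, close to the median of 5.46 RPKM over the 12229 detected protein-coding genes. The middle of that background, from its lower to its upper quartile, ran from 1.82 to 14.5 RPKM. Of the repair genes, 6 lay above this band and 10 lay below it. DDX53 itself had 1.67 and 1.82 RPKM (mean 1.75), near the lower edge of the band. The 3 genes with most reads, DDB1, MSH6 and RPA1, took 50.5% of all reads in the 38 genes.

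**Figure D1:**
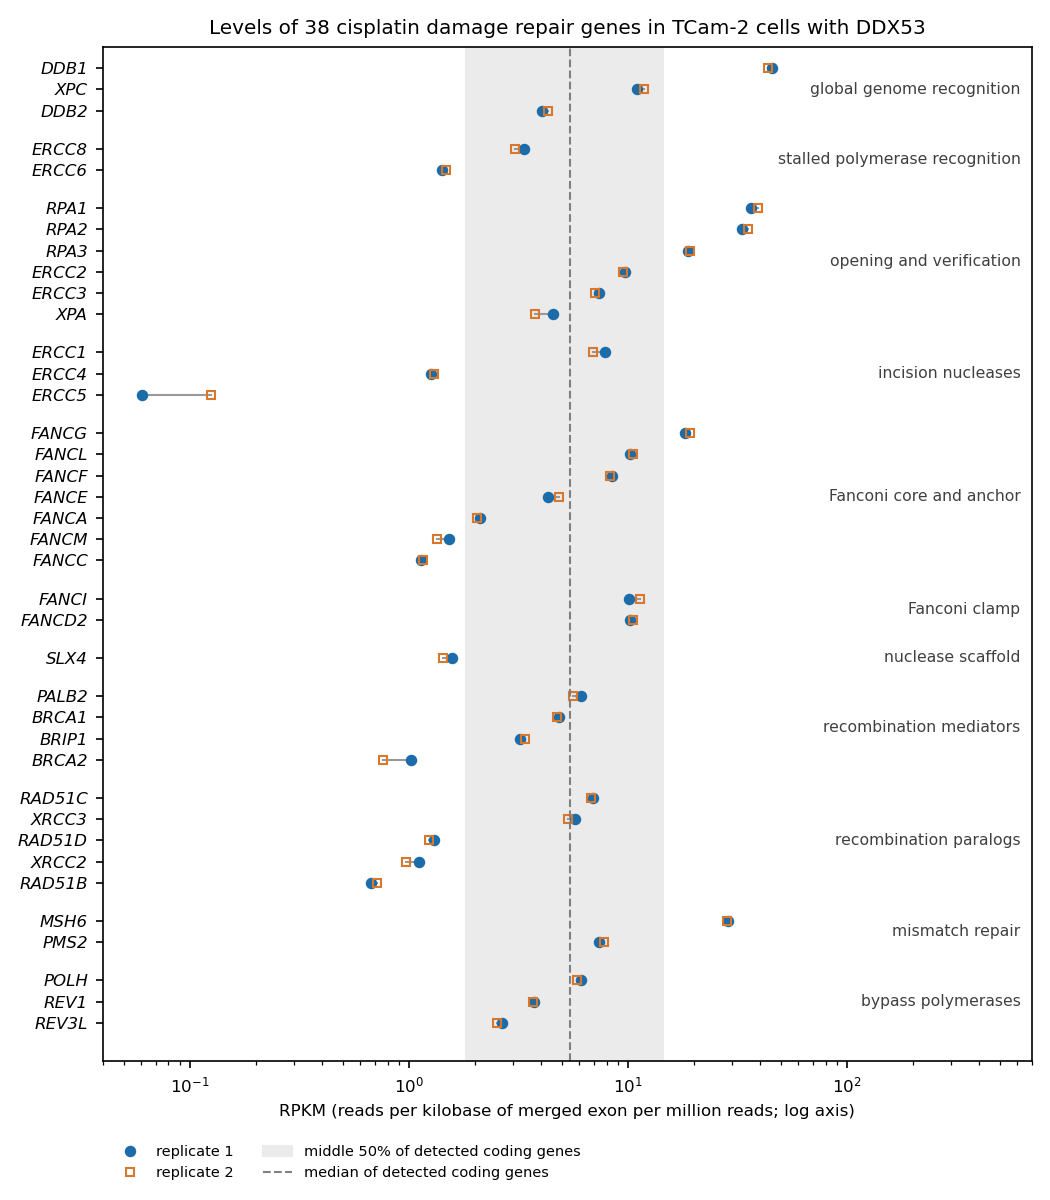
Level of each of the 38 repair genes in RPKM (log axis) in replicate 1 and replicate 2, grouped by role, with the median (dashed) and the middle 50% (band) of the detected protein-coding genes. The levels run from 0.0930 RPKM for ERCC5 to 44.5 RPKM for DDB1 as means of the libraries, and the 2 points of a gene lie farthest apart for ERCC5, followed by BRCA2.

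The proteins that recognise damage across the genome differed widely in transcript level. DDB1 (ENSG00000167986.15, chromosome 11, 61299451 to 61342596, minus strand) encodes the adaptor of a ubiquitin ligase that also serves many other substrates, and was the highest repair gene. It had 45.3 RPKM in replicate 1 and 43.7 RPKM in replicate 2, and 92.0% of detected protein-coding genes were lower. DDB2, the subunit that reads ultraviolet damage in the same complex, had 4.06 and 4.34 RPKM, so the level of DDB1 was 11.2-fold and 10.1-fold that of its partner. XPC, which binds the distorted helix and starts global repair, had 10.97 and 11.8 RPKM. Thus XPC stood between the DDB subunits in both libraries, at 2.7-fold and 2.72-fold the level of DDB2. The transcript table, in TPM, gave XPC 18.8 and 19.997 and DDB2 18.2 and 22.5, so this order was not kept there, while DDB1 was highest in it too, at 170 and 159.

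The factors that serve stalled RNA polymerase were lower. ERCC8, the Cockayne syndrome A protein of a ubiquitin ligase, had 3.35 and 3.05 RPKM. ERCC6, the Cockayne syndrome B ATPase that binds the stalled polymerase, had 1.43 and 1.48 RPKM. ERCC8 was the higher in both libraries, by 2.35-fold and 2.06-fold. The transcript table gave the reverse order, with ERCC6 at 3.803 and 4.63 TPM and ERCC8 at 2.34 and 0.317 TPM.

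Among the genes that open and verify the lesion, those for the single-strand binding protein RPA led. RPA1, the large subunit (ENSG00000132383.12, chromosome 17, 1829702 to 1900082, plus strand), had 36.7 and 39.1 RPKM. RPA2, the subunit phosphorylated when forks stall, had 33.3 and 35.5 RPKM, and RPA3, the smallest subunit, had 18.9 and 19.2 RPKM. The order of the 3 subunits depended on the length used. In TPM, which corrects for the length of each transcript, RPA3 was highest, at 132 and 138 TPM, followed by RPA1 at 90.9 and 91.8 TPM and RPA2 at 59.2 and 62.6 TPM. The helicases of the transcription factor TFIIH were closer to the background median. ERCC2, known as XPD, had 9.73 and 9.51 RPKM, and ERCC3, known as XPB, had 7.40 and 7.10 RPKM, so ERCC2 was 1.32-fold and 1.34-fold the level of ERCC3. In TPM the order was reversed, with ERCC2 at 28.4 and 30.4 TPM and ERCC3 at 31.8 and 32.5 TPM. XPA, the scaffold that checks the opened lesion, was the lowest of the 6 genes of this step, at 4.54 and 3.78 RPKM and only 201 and 154 reads.

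The incision nucleases had a median of 1.29 RPKM. Their median was also low in TPM, at 2.42 against 9.98 for all 38 genes. The summed TPM of ERCC4 and ERCC5 is uncertain, however. With the length of the top transcript the median was 18.0, above the 15.6 of all 38 genes on that scale. Their low place thus held in RPKM and TPM but not with that length. ERCC1, the partner that positions the 5′ nuclease, stood above the others at 7.83 and 6.96 RPKM. ERCC4, the catalytic XPF subunit that pairs with it, had 1.27 and 1.30 RPKM. The 2 genes of this heterodimer thus differed by 6.17-fold in replicate 1 and 5.34-fold in replicate 2 in RPKM. In TPM the fold was 83.3 and 40.7, and with the length of the top transcript it was 1.92 and 1.66. ERCC5 (ENSG00000134899.24, chromosome 13, 102807146 to 102876001, plus strand) encodes XPG, the nuclease of the 3′ side. It was the lowest repair gene in RPKM, at 0.0603 and 0.126. Its CPM was 0.497 (95% Wilson interval, 0.284 to 0.869) in replicate 1 and 1.04 (0.690 to 1.55) in replicate 2. ERCC5 shared 63.2% of its exonic bases, on the same strand, with the readthrough gene BIVM-ERCC5, which received 0 reads in both libraries, and 19.1% with BIVM, which received 125 and 108 reads. Reads that fit both ERCC5 and the readthrough gene could have been assigned to neither, so the ERCC5 count is uncertain. In the transcript table ERCC5 had 2.98 and 1.86 TPM, of which 94.1% and 85.7% was ERCC5-205, a transcript of 710 bases without a reading frame. These shares cover 6 of the 8 annotated ERCC5 transcripts, since the others were not matched here. The longest reading frame among the matched ones had 419 codons. The summed TPM of ERCC5 is therefore uncertain as a level, and so are these shares.

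The genes of the Fanconi core and its anchor spread over 16.2-fold in RPKM. FANCG, an adaptor of the core, was highest at 18.2 and 19.1 RPKM. FANCL, the ubiquitin ligase of the core, had 10.3 and 10.6 RPKM, and FANCF, a scaffold encoded by 1 exon, had 8.48 and 8.27 RPKM. These 3 genes lay above the background median. FANCE, which bridges the core to FANCD2, had 4.34 and 4.85 RPKM. FANCA, the partner of FANCG, had 2.12 and 2.05 RPKM, so that FANCG was 8.56-fold and 9.32-fold higher in RPKM, 4.73-fold and 6.06-fold in TPM, and 2.22-fold and 2.41-fold with the length of the top transcript. FANCM, the DNA translocase that anchors the core, had 1.52 and 1.35 RPKM, and FANCC, the partner of FANCE, was lowest at 1.14 and 1.16 RPKM. The lowest place depended on the measure, since in TPM FANCM was lowest, at 1.78 and 0.812 TPM, and FANCC had 5.37 and 7.17 TPM.

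The clamp genes were close in reads per length. FANCD2 (ENSG00000144554.13, chromosome 3, 10026414 to 10101930, plus strand) had 10.2 and 10.6 RPKM, and FANCI (ENSG00000140525.20, chromosome 15, 89243949 to 89317261, plus strand) had 10.1 and 11.4 RPKM. Their ratio, FANCI over FANCD2, was 0.993 in replicate 1 and 1.07 in replicate 2. In TPM they were further apart, with FANCI at 26.9 and 33.9 TPM and FANCD2 at 24.4 and 17.3 TPM. With the length of the top transcript, which is short in FANCD2, the ratio was 0.0871 and 0.0941. SLX4, the scaffold that brings nucleases to the crosslink, was low at 1.57 and 1.44 RPKM.

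Among the recombination mediators, BRCA2 was lowest in RPKM. This gene (ENSG00000139618.18, chromosome 13, 32315474 to 32400266, plus strand) encodes a protein essential for homologous recombination, and had 1.02 and 0.763 RPKM. BRCA1, which acts in end resection and brings PALB2 to breaks, had 4.83 and 4.74 RPKM. PALB2, the bridge between them, had 6.14 and 5.64 RPKM, and BRIP1, the helicase also called FANCJ, had 3.21 and 3.38 RPKM. The level of BRCA1 was 4.74-fold that of BRCA2 in replicate 1 and 6.21-fold in replicate 2, and that of PALB2 was 6.03-fold and 7.38-fold. In TPM the fold over BRCA2 was 8.66 and 5.24 for BRCA1 and 7.44 and 3.66 for PALB2. With the length of the top transcript it was 2.38 and 3.12 for BRCA1, and PALB2 was below BRCA2, at 0.305-fold and 0.373-fold.

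The 5 paralogs RAD51B, RAD51C, RAD51D, XRCC2 and XRCC3, which promote strand exchange in recombination, formed a high pair and a low trio in RPKM. RAD51C had 6.95 and 6.82 RPKM and XRCC3, its partner in a complex of 2 proteins, had 5.73 and 5.33 RPKM. RAD51D had 1.30 and 1.24 RPKM, XRCC2 had 1.12 and 0.975 RPKM, and RAD51B had 0.670 and 0.717 RPKM. RAD51B, RAD51C, RAD51D and XRCC2 form the other known complex. RAD51C exceeded the lowest of them in RPKM, RAD51B, by 10.4-fold and 9.52-fold. In TPM XRCC2 was lowest, at 1.29 and 1.21 TPM against 3.68 and 3.48 TPM for RAD51B. XRCC2 was also lowest with the length of the top transcript. RAD51C exceeded XRCC2 by 6.2-fold and 7.0-fold in RPKM, 32.6-fold and 37.0-fold in TPM, and 21.7-fold and 24.4-fold with that length. RAD51D stayed below RAD51C in TPM but not with the length of the top transcript, where RAD51C was at 0.755-fold and 0.775-fold of it. The count of XRCC3 is uncertain, since 76.7% of its exonic bases overlap KLC1 on the opposite strand.

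Of the mismatch repair genes, MSH6, the partner that recognises single mismatches, had 28.8 and 28.2 RPKM, above 87.1% of detected protein-coding genes. PMS2, the endonuclease subunit, had 7.38 and 7.79 RPKM. MSH6 was 3.90-fold and 3.62-fold higher than PMS2 in RPKM, 24.4-fold and 13.7-fold in TPM, and 54.9-fold and 51.04-fold with the length of the top transcript. The bypass polymerases were within 2.31-fold of each other in RPKM. POLH, which copies across crosslinks within a strand, had 6.13 and 5.89 RPKM, REV1, a scaffold for the other bypass polymerases, had 3.74 and 3.68 RPKM, and REV3L, the catalytic subunit of polymerase zeta, had 2.66 and 2.53 RPKM. The order POLH, REV1, REV3L held in both libraries in RPKM but not in TPM, where REV1 had 12.4 and 10.5 TPM, REV3L 6.01 and 4.57 TPM and POLH 4.92 and 4.85 TPM.

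The repair genes differed little between the 2 libraries. In edgeR's exact binomial test of replicate 2 against replicate 1, which compares these libraries with counting noise and not conditions, 3 of the 38 genes passed an adjusted p of 0.05. That is 7.89% of them, against 13.1% of the 15299 genes tested, of which 6.78% were higher and 6.35% lower in replicate 2. On the log2((CPM + 1)/(CPM + 1)) scale, 21 repair genes were lower and 17 higher in replicate 2. The lower ones made up 55.3%, near the 52.2% of all genes in the same comparison. Their median difference was -0.027, and that of all 13898 genes whose mean reached 1 CPM was -0.0077. The median size of the difference, whatever its sign, was 0.072 for the repair genes and 0.097 for all genes. At an unadjusted p under 0.05 the test passed 8 repair genes (21.1%), against 24.1% of all genes tested.

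FANCI was higher in replicate 2. It received 1895 and 1962 reads, which is 78.5 CPM (95% Wilson interval, 75.1 to 82.1) and 88.4 CPM (84.6 to 92.4). The intervals did not overlap. The log2 difference was 0.17, with an adjusted p of 0.0021 in edgeR's exact binomial test. FANCD2, its partner, had 85.3 and 88.9 CPM, with an adjusted p of 0.39 in the same edgeR test. Whether the difference of FANCI exceeded that of FANCD2 was not tested.

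RPA1 was also higher in replicate 2, by a small amount. It received 4863 and 4770 reads, or 201.5 and 214.9 CPM, a log2 difference of 0.09 with an adjusted p of 0.0081 in edgeR's exact binomial test. RPA2, another subunit, went from 67.3 to 71.8 CPM, a log2 difference of the same size, and did not pass after adjustment (adjusted p = 0.20, edgeR). RPA3 had 61.1 and 62.2 CPM.

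BRCA2 was lower in replicate 2. It received 302 and 208 reads, or 12.5 CPM (95% Wilson interval, 11.2 to 14.0045) and 9.37 CPM (8.18 to 10.7). The intervals did not overlap, and the log2 difference was -0.38 with an adjusted p of 0.017 in edgeR's exact binomial test. How often such intervals fail to overlap over all genes was not counted, and 13.1% of all genes tested passed the same test. Summed over its transcripts, however, BRCA2 was at 1.20 TPM in replicate 1 and 2.02 TPM in replicate 2, the opposite order. In replicate 2, 1.103 TPM of this came from BRCA2-205, a transcript of 523 bases with a retained intron that was listed at 0 in replicate 1. The 2 transcripts that encode 3418 codons exchanged places, with BRCA2-206 at 0.873 and 0 TPM and BRCA2-201 at 0 and 0.908 TPM. The direction for BRCA2 therefore depends on the deposited table used. Of the 8 proliferation markers, MKI67 was lower in replicate 2 (5642 and 4107 reads, log2 difference -0.34) and MCM7 higher (6063 and 5927 reads, log2 difference 0.09), while the summed level of the 8 was 2266 and 2219 CPM. Their part in the differences of the repair genes was not tested.

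The largest log2 difference of all belonged to ERCC5, at 0.44 and on 12 and 23 reads, with an adjusted p of 0.18 in edgeR's test. ERCC1 had 1054 and 862 reads, a log2 difference of -0.17 (adjusted p = 0.094, edgeR), and DDB1 had 15254 and 13542 reads, a log2 difference of -0.05 (adjusted p = 0.076, edgeR). Neither passed. The other members had adjusted p-values of 0.20 or more in the same edgeR test.

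**Figure D2:**
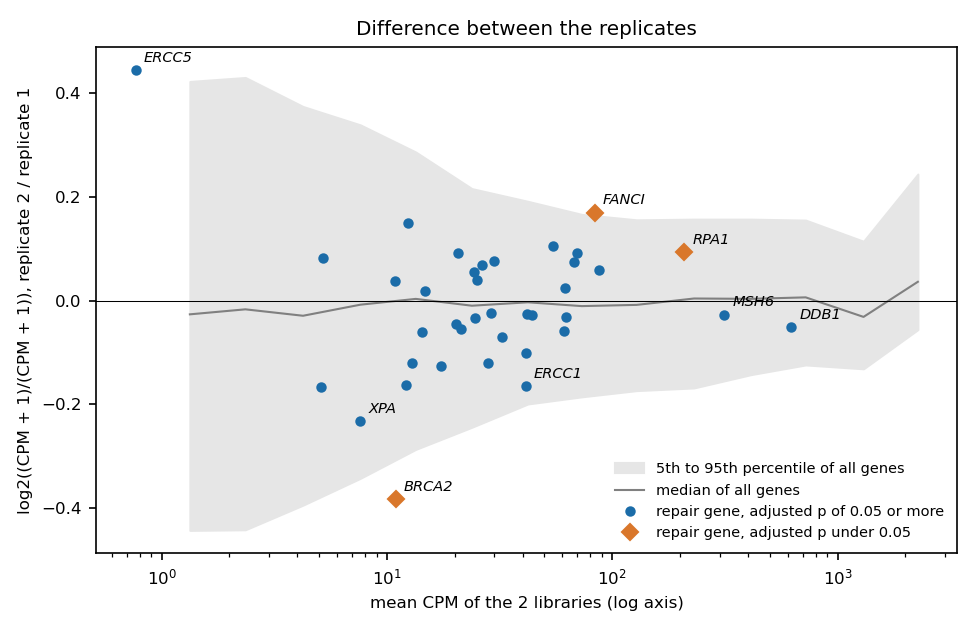
Difference between the libraries, log2((CPM + 1)/(CPM + 1)) of replicate 2 over replicate 1, against mean CPM (log axis) for the repair genes, with the median (line) and the range from the 5th to the 95th percentile (band) of all genes of like level. FANCI at 0.17, RPA1 at 0.09 and BRCA2 at -0.38 are marked as having passed the exact binomial test, and ERCC5 at 0.44 rests on the fewest reads.

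The study's title names transcriptome changes, and the transcript table allowed the forms of each gene to be described. Of the 38 genes, 24 had several annotated transcripts and reached 5 TPM, summed over them, in each library. The transcript with the highest TPM differed between the libraries in 5 of them (BRCA1, ERCC2, FANCA, RAD51C and REV1). This is 20.8%, against 8.48% of 8842 genes under the same rule. When only protein-coding transcripts were compared, the count was 2 of the 19 genes that met the rule. No background share was taken under that rule. Repair genes had more annotated transcripts than the background, with a median of 11.5 against 8, and the part of this in the difference was not tested. The depth behind each TPM is unknown. In 9 of the 38 genes, among them FANCD2, BRCA1, MSH6 and PMS2, some annotated transcripts were not matched to the transcript table, so shares cover the matched ones only.

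The share of TPM in transcripts annotated as protein coding had a median of 93.0% and 91.9% over these 24 genes, against 95.4% and 95.8% over 8653 protein-coding genes. FANCD2 stood lowest, over 11 of its 13 annotated transcripts. Of its TPM, 16.4% in replicate 1 and 9.76% in replicate 2 came from protein-coding transcripts. Its reads exceeded the number that this TPM predicts by 2.84-fold and 4.38-fold, so the shares are uncertain. FANCD2-209, a transcript of 449 bases without a reading frame, held 61.8% and 57.4%. FANCD2 was the 1 repair gene of the 24 whose top transcript was not protein coding in both libraries, a state found in 6.63% of the background genes. Its form with 1451 codons, FANCD2-203, was listed at 3.67 and 1.60 TPM.

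Other repair genes also divided their TPM. In RPA1 the protein-coding share was 52.0% and 55.2%, and RPA1-206, with a retained intron, held 34.9% and 30.0%. FANCA had a protein-coding share of 43.1% and 43.0%, and transcripts marked for nonsense-mediated decay held 46.0% and 22.9%. RAD51C had a share of 48.5% and 51.4%, DDB2 67.2% and 50.5%, and ERCC2 63.6% and 69.0%. In DDB2, retained-intron transcripts made up 32.2% and 45.2%. For comparison, RPA2 and FANCL were at 100% in both libraries, and XPA was at 98.2% and 99.1%. MSH6 was almost wholly protein coding, yet its highest transcript was MSH6-202, of 548 bases and 151 codons, at 59.0 and 44.9 TPM. MSH6-201, with 1360 codons, had 35.4 and 37.2 TPM.

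**Figure D3:**
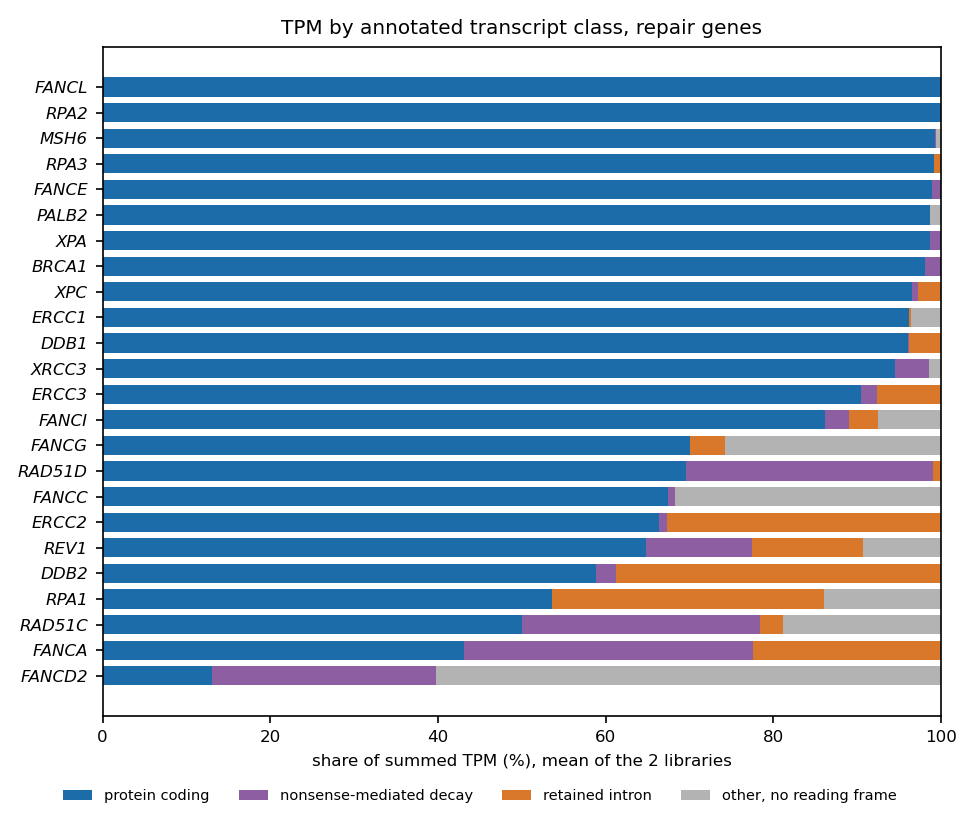
Share of summed TPM (%, mean of the 2 libraries) in protein-coding transcripts and in the other annotated classes, for the 24 repair genes that reached 5 TPM in each library. Most bars are nearly filled by protein-coding transcripts, and FANCD2 at the bottom has a mean protein-coding share of 13.1%.

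ERCC1 is a case where the transcript matters for the protein, since the form of 297 residues is the one held to be functional in excision repair. The 2 transcripts with 297 codons, ERCC1-202 and ERCC1-208, together held 16.1% of ERCC1 TPM in replicate 1 and 16.3% in replicate 2, or 7.53 ± 0.289 TPM (SD, n = 2). ERCC1-201, with 323 codons and another last exon, held 34.7% and 31.5%. ERCC1-203, with 273 codons, held 21.7% and 28.98%, and ERCC1-213, with 234 codons, held 15.3% and 12.8%. In both libraries the 297-codon form was thus below ERCC1-201 and ERCC1-203. ERCC1-203 lacks exon 8 of ERCC1-202, which has 72 bases or 24 codons and lies at chr19:45413963-45414034 on the minus strand (GRCh38, GENCODE 29). That exon is shown because it separates these forms, in capitals with 20 bases of the neighbouring exons in lower case.
ERCC1 exon 8: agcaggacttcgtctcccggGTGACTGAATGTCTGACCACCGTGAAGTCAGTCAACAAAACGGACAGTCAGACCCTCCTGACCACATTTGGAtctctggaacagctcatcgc

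The gene and transcript tables disagreed for some repair genes. Reads per gene were set against the number predicted from TPM and transcript length. The log2 ratio of reads to prediction had a median of 0.39 and 0.42 over the repair genes and 0.13 and 0.14 over the detected protein-coding genes with a TPM. BRIP1 exceeded its prediction by 144-fold and 27.2-fold, and ERCC8 by 6.91-fold and 28.5-fold. BRIP1 received 620 and 599 reads but was listed at 0.020 and 0.802 TPM. These 2 genes were beyond 4-fold in both libraries, as were 2.07% of 12227 background genes. No repair gene fell below its prediction by 4-fold in both, against 1.5% of the background. Nearest inside the threshold were FANCM, at 3.99-fold and 7.27-fold, ERCC4, at 3.98-fold and 20.2-fold, and BRCA1, at 3.08-fold and 3.65-fold. FANCD2 followed, at the values given above, and PMS2, at 3.996-fold and 2.66-fold. Of the TPM, 94.8% was in transcripts that the annotation used here holds, and transcripts outside it were not assigned to genes. Their part in these ratios was not tested. For BRIP1, ERCC8, ERCC4, FANCM, BRCA1, FANCD2 and PMS2 the summed TPM is therefore uncertain as a level, and so are their transcript shares. The same holds for ERCC5, for which only 6 of 8 annotated transcripts were matched.

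**Figure D4:**
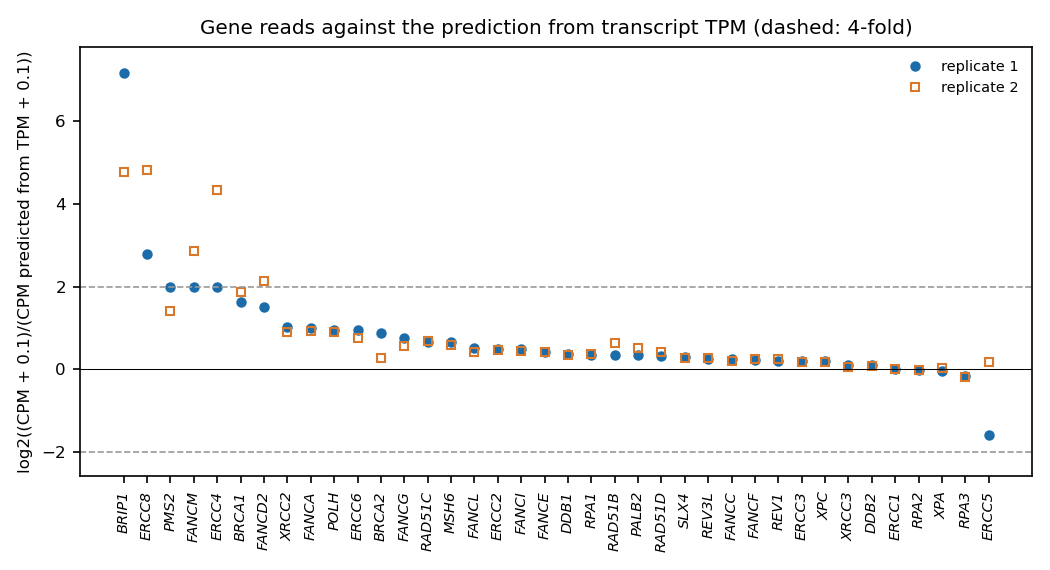
Log2 ratio of gene reads to the reads predicted from transcript TPM for each repair gene in replicate 1 and replicate 2, with dashed lines at 4-fold. BRIP1 at 7.17 and 4.77 and ERCC8 at 2.79 and 4.83 lie above the upper line in both libraries.

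Shared sequence limits some of these counts. Of the 38 genes, 24 overlapped another gene's exons. The overlap reached 10% of exonic length on the same strand for ERCC5 and ERCC8, and ERCC8 shared 28.3% with the pseudogene GNL3LP1, which received 0 reads. On the opposite strand it reached 10% for 9 genes (XPC, ERCC1, ERCC4, FANCA, FANCF, FANCL, XRCC3, MSH6 and REV1). The libraries kept the strand, but whether counting used it is not given in the sources used here. If it did not, reads of ERCC1 and of CD3EAP, which covers 28.6% of its exonic bases, cannot be told apart. PMS2 has many near-identical pseudogenes. PMS2CL received 0 reads in both libraries, while the transcript table listed it at 2.56 and 2.97 TPM beside 3.89 and 6.16 TPM for PMS2. The PMS2P3 entry ENSG00000127957.21 likewise had 0 reads but 6.08 and 7.05 TPM. Another PMS2P3 entry, ENSG00000291092.1, had 19 and 18 reads, and the PMS2P4 entry ENSG00000291154.1 had 33 and 34 reads. PMS2 itself had 701 and 681 reads, and how reads that fit PMS2 and its copies were assigned was not tested. The pseudogenes FANCD2P2 and BRCA1P1 had at most 1 read in a library.

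Some of the repair genes start close to another gene that runs the opposite way. A start of a protein-coding gene on the other strand lay 0 to 1000 bases upstream in 11 of 38 (28.9%), against 9.66% of the 12229 detected protein-coding genes. At most 500 bases away, there were 9 (23.7%), against 8.82%, and within 1000 bases on either side there were 14 (36.8%), against 17.3%. These rules were chosen after the data were seen, and a difference from the background was not tested. The stretch between such starts may serve both genes, so 3 windows are shown in full, from 250 bases before to 50 bases after the repair gene's start, as RefSeq gives them on GRCh38.p14. They stand for a moderate difference in RPKM, a large difference and a silent neighbour. Capitals mark every match, on either strand, to the letters CCAAT, which resemble a site of NF-Y, GGGCGG, which resemble a site of SP factors, or CCGGAAGT, which resemble a site of ETS factors.
ERCC8 with NDUFAF2, chr5:60945021-60945320, minus strand: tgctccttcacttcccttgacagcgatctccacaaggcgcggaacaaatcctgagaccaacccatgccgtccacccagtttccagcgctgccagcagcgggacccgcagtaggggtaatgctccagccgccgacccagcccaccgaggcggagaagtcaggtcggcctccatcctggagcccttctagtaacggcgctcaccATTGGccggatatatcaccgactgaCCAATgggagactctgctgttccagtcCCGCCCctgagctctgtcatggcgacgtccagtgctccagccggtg
PALB2 with DCTN5, chr16:23641261-23641560, minus strand: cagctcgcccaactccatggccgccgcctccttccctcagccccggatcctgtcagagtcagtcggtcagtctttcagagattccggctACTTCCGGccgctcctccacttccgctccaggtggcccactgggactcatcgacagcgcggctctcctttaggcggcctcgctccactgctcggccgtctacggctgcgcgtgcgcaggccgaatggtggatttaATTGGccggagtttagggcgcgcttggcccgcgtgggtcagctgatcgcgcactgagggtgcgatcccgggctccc
BRCA2 with ZAR1L, chr13:32315258-32315557, plus strand: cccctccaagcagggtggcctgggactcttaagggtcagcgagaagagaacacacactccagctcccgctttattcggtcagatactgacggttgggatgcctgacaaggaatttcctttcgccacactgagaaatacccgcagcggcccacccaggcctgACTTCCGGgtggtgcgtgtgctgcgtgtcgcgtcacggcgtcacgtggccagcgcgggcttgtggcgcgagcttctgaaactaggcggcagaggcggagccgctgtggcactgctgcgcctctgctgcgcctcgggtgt

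In the ERCC8 window the CCAAT letters occurred 48 and 23 bases before the start and GGGCGG letters 5 bases after it. In PALB2 the CCGGAAGT letters lay 161 bases and the CCAAT letters 26 bases before the start. The BRCA2 window held the CCGGAAGT letters 89 bases before the start and neither of the others. By the RefSeq starts the paired genes began 135, 156 and 145 bases apart in these 3 windows.

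Levels in RPKM within these pairs were unequal. NDUFAF2, a complex I assembly factor, had 17.4 and 16.6 RPKM, or 5.19-fold and 5.44-fold the level of ERCC8. Before division by length these genes were close, at 17.6 and 16.9 CPM for NDUFAF2 and 18.2 and 16.6 CPM for ERCC8. The fold thus depends on the length used. With the length of its top transcript ERCC8 stood at 20.7 and 18.9, and NDUFAF2 was not compared on that scale. DCTN5, a dynactin subunit, had 44.1 and 50.2 RPKM, or 7.17-fold and 8.90-fold the level of PALB2. In TPM the neighbours were further above. NDUFAF2 had 48.3 and 46.4 TPM beside 2.34 and 0.317 TPM for ERCC8, whose summed TPM is uncertain as a level. DCTN5 had 243 and 301 TPM beside 8.92 and 7.40 TPM for PALB2. ZAR1L received 0 reads in both libraries, while BRCA2 received 302 and 208. A count of 0 allows up to 3 reads, and these would be 0.124 and 0.135 CPM in the respective libraries. This limit, like the intervals above, covers counting error only.

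Among the other pairs, FNDC8, which starts 57 bases from RAD51D, also had 0 reads. TEX14, a germ cell gene 518 bases from RAD51C, had 12 and 21 reads, or 0.0934 and 0.178 RPKM beside 6.95 and 6.82 RPKM for RAD51C. DNASE1 was at 0.265-fold and 0.284-fold the level of SLX4 in RPKM, but above it in TPM, at 3.11 and 2.91 against 2.31 and 2.17 TPM. The rest of the neighbours were higher than the repair gene in both libraries, in RPKM and in TPM. AIMP2, a member of the tRNA synthetase complex, was 8.28-fold and 7.49-fold above PMS2, and FKBP3 was 27.4-fold and 32.8-fold above FANCM. XPO5, the exporter of microRNA precursors, was 2.56-fold and 2.53-fold above POLH, ZFYVE21 was 2.25-fold and 2.41-fold above XRCC3, and the autophagy receptor gene NBR1 was 1.79-fold and 1.87-fold above BRCA1.

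**Figure D5:**
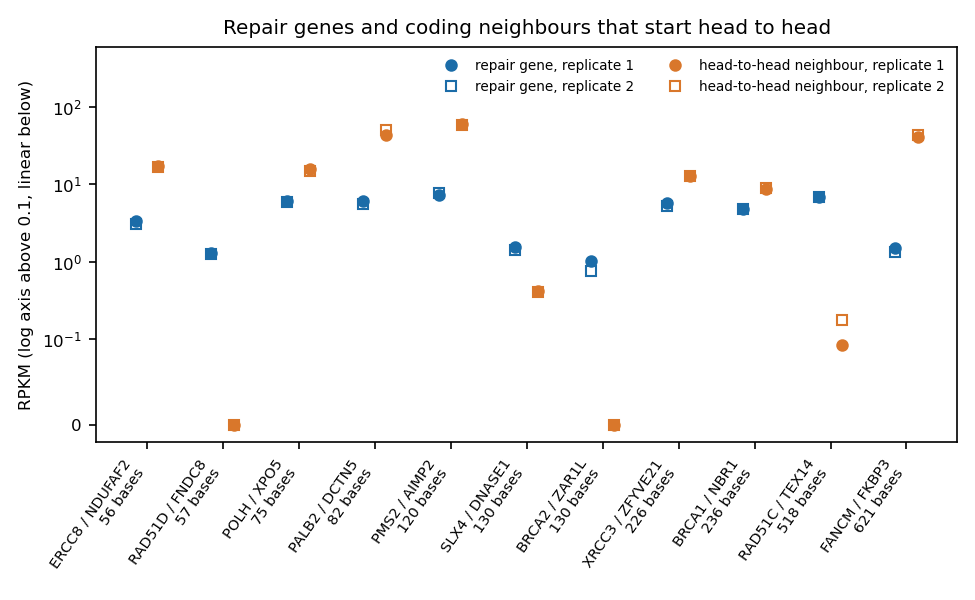
Level in RPKM (log axis above 0.1, linear below) of the 11 repair genes and of the protein-coding neighbour that starts head to head with each, in both libraries, ordered by the distance between starts. In 7 pairs the neighbour is the higher, and FNDC8 and ZAR1L lie at 0.

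The RefSeq table held a 300-base window for 24 of the 38 genes, and these were searched on both strands. CCAAT occurred in 9 (37.5%), against 37.9% of 7022 windows of detected protein-coding genes, and GGGCGG in 18 (75%), against 74.9%. The letters TTTGGCGC, TTTCCCGC, TTTGCCGC or TTTCGCGC, forms of the E2F motif, occurred in 4 (16.7%; XPC, FANCA, FANCD2 and XRCC2), against 5.597%, and over all 35116 windows of the table in 3.31%. CCGGAAGT also occurred in 4 (ERCC3, FANCD2, BRCA2 and PALB2), against 10.3%. TATAAA occurred in 0 of 24, against 4.78%, TTTGAA in 1 (BRIP1), against 8.94%, and TGACGTCA in 1 (XRCC2), against 3.76%. Such a match describes the letters and is no evidence of binding. The windows had a median GC content of 64.5%, against 66.3%. The ratio of observed to expected CpG exceeded 0.6 in all 24, against 88.7%.

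The partners of these genes, listed by pathway, were mostly expressed too. Of 16 excision repair cofactors 15 were detected. The lowest was GTF2H4, a TFIIH subunit, with 1 read in each library, although its TPM predicted 161-fold and 154-fold more, so its count is uncertain. In edgeR's exact binomial test 0 of 15 cofactors were higher in replicate 2 and 2 were lower, UVSSA (207 and 139 reads) and USP7 (4185 and 3435 reads), both of the response to stalled polymerase. All 14 Fanconi cofactors were detected, from UBE2T, the ubiquitin-conjugating enzyme for the clamp, at 55.9 and 55.6 RPKM, to CENPS at 1.17 and 1.24 RPKM. The TPM of CENPS predicted 10.4-fold and 8.69-fold more reads, so its level and its lowest place are uncertain. USP1, which removes ubiquitin from the clamp, was higher in replicate 2 (3508 and 3474 reads) and RFWD3 lower (4070 and 3475 reads).

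All 12 recombination cofactors were detected. RAD54L, a DNA translocase of homologous recombination, led at 12.5 and 12.6 RPKM. RAD50 was lowest at 0.237 and 0.180 RPKM, but its TPM predicted 20.2-fold and 24.05-fold more reads, so this level is uncertain. The resection gene RBBP8 was higher in replicate 2 (595 and 672 reads), and BARD1, the partner of BRCA1 (1224 and 959 reads), and the resolvase GEN1 (748 and 540 reads) were lower. Of 8 bypass cofactors, all detected, the sliding clamp PCNA was highest at 232 and 244 RPKM and the only one to pass the test, higher in replicate 2, and SHPRH was lowest at 1.14 and 1.04 RPKM. Of 11 genes of cisplatin transport and thiol metabolism 10 were detected. GSTP1, a glutathione transferase, reached 1339 and 1480 RPKM and was higher in replicate 2, while SLC22A2, a kidney transporter of organic cations and cisplatin, had 1 and 0 reads. Across the 5 lists, 4 genes were called higher and 5 lower, which is 15.3% of the 59 tested, near the 13.1% over all genes.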

How the data were processed

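RNA-seq of 2 libraries of DDX53-overexpressing TCam-2 cells was analysed. The authors deposited TPM per transcript and a gene table of signal, in which each library's counts had been divided by its own factor. Per the submitters' processing notes, Trim Galore 0.6.10, STAR 2.7.11a, Salmon 1.10.2 and DESeq2 were used, with the builds GRCh38 and hg38. The counting step is not given in the sources used here. Whole reads were recovered by dividing by the value of 1 read (1.02 and 1.12), and 100% of values came out whole within 0.1 read. They summed to 24137664 and 22198929. CPM and RPKM used these totals and merged exons of GENCODE 29, and 201667 of 251955 transcripts matched it. Of columns with values, 0 were left unused.

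Libraries were compared with edgeR 4.0.16 (two-sided exact binomial test, TMM, filterByExpr, Benjamini-Hochberg over all genes tested, threshold 0.05). The p-values compare these libraries with counting noise only, and no spread between replicates entered them. As nothing says the replicates were separate cultures, a difference between the libraries may be technical. Differences used a pseudocount of 1 CPM, which understates low genes. The prediction from TPM used a prior of 0.1 CPM. On data of 15045 genes simulated with counting noise only, 83.4% of 193 genes changed 2-fold were recovered, with 5 false calls. Of the 142 with at least 100 reads, 98.6% were recovered. Spread between libraries beyond counting noise was not simulated, so the false calls do not describe these libraries. Named were all members, DDX53, the highest and lowest gene of each partner list, copies and overlapping genes of members, and, chosen after their values were seen, partners that passed the test and head-to-head neighbours. The highest gene of 1 list is not reported here. The members and lists were chosen with earlier results of these data known. Alternatives covered thresholds, length, scaling, filters and each library alone, with DESeq2 1.42.0 for size factors.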

Additional observations from a re-analysis of the deposited data

How the results depend on the processing

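Of 73 alternative values, 46 stayed within the limit set for each result and 27 moved. A change of sign had no label of its own. Levels per length moved most. These measures are on different scales and the limit was the SD between the 2 libraries, which a change of scale alone can pass. The background was not compared on the other scales. With TPM summed per gene and with the length of the top transcript in place of merged exons, the median repair gene went from 5.16 RPKM to 9.98 TPM and 15.6. The group medians went from 11.4 to 20.4 and 14.3 for global recognition, from 2.33 to 2.77 and 13.5 for the stalled polymerase, from 14.3 to 46.5 and 30.9 for opening, and from 1.29 to 2.42 and 18.0 for incision. They went from 4.60 to 9.47 and 8.37 for the Fanconi core, from 10.6 to 25.6 and 105.8 for the clamp, from 1.504 to 2.24 and 1.77 for SLX4, and from 4.04 to 4.89 and 38.7 for the mediators. They went from 1.27 to 8.06 and 16.1 for the recombination paralogs, from 18.0 to 47.5 and 291 for mismatch repair, and from 3.71 to 5.29 and 6.07 for bypass. Top transcripts differed in 2 of 19 genes, not 5 of 24, among protein-coding transcripts. The median coding share was 90.3% at 1 TPM against 92.4%, and genes far from the prediction were 7 at 2-fold against 2 at 4-fold. The same 3 genes were called between the libraries under all 3 alternatives of that test. The median difference of -0.027 became 0.014 with TPM, so its sign depended on the table used. With TPM 34 genes were detected and at 5 CPM 36, against 37. With either library alone, 37 to 38 were detected and their median level was 5.09 to 5.28 RPKM. ERCC5 had the fewest reads of the repair genes, 12 and 23, and the part of depth in this was not tested. No paired analysis was possible because both libraries belong to 1 group.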
